A study of Mus musculus with 7 samples.

Results

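The Fc gamma receptor genes of the mouse are described here in s/c PDA tumors, as 6 genes named by their symbols: *Fcgr1*, *Fcgr3* and *Fcgr4*, which encode activating receptors for IgG, *Fcer1g*, which encodes the gamma chain that these receptors signal through, *Fcgr2b*, which encodes the inhibitory receptor, and *Fcgrt*, which encodes the heavy chain of the neonatal Fc receptor FcRn. They were chosen as a gene family, by name, and the rule has no threshold on a measured value. The choice was made with earlier results of these data known. All 6 were among the 22629 rows of the table and all 6 passed the filter on low counts, as did 17489 genes in all. Tumors were formed s/c in C57BL/6 mice with 1242 KPC cells, a pancreatic cancer line from a genetically engineered mouse with Pdx1-Cre, and were harvested at 2 weeks. In the control group, 3 tumors were formed with sgScramble cells, which carry a control CRISPR guide. In the icOVA group, 4 tumors were formed with sgScramble cells that also carried a lentiviral, Dox-inducible ovalbumin kept in the cytoplasm, a foreign antigen for the host, and that were sorted and cloned from single cells. In the paper, hosts of such tumors were given Dox food from the start to induce ovalbumin. More cells were inoculated for ovalbumin-inducible tumors than the paper's default for s/c tumors. The sources used here do not state how many clones formed the tumors or whether the control cells also held the vector. They also do not state whether the control hosts received Dox or how many cells formed these control tumors. The paper formed ovalbumin-inducible tumors both with and without Dox, but does not say whether the sequenced controls were such tumors without Dox. Ovalbumin was read 85 to 151 times in the control tumors and 3413 to 10750 times in the icOVA tumors. The source of these reads in the control tumors was not tested. The numbers of the tumors (1, 4 and 5 in the sgScramble group, and 15, 16, 18 and 2 in the icOVA group) are names only. The comparison asks how the receptors that bind antibody differed between the sgScramble and the icOVA tumors. Where cloning, Dox or the number of cells inoculated also differed, their part cannot be told apart from that of the antigen.

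Fc gamma receptors are carried mainly by macrophages, monocytes, neutrophils, dendritic cells, NK cells and B cells, and bind the constant part of IgG, so that an antibody on a target cell or in an immune complex can trigger phagocytosis, cytokine release or killing. The activating receptors lack a signaling motif of their own and need the ITAM of the gamma chain, which Src family kinases phosphorylate and to which Syk then binds. Fcgr2b carries an inhibitory ITIM in its own tail, recruits the phosphatase SHIP-1 and opposes these signals in the same cell, so the balance of the activating chains to Fcgr2b is often used to describe how readily a cell responds to IgG. FcRn, which pairs with beta-2-microglobulin, carries IgG and albumin away from lysosomes and is expressed in many cell types, including endothelium and macrophages.

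Of the 6 genes, 4 were higher in the icOVA tumors: *Fcer1g*, *Fcgr4*, *Fcgr2b* and *Fcgr3*, by log2 fold changes of 0.71, 0.66, 0.57 and 0.55. Relative to *Ptprc*, the pan-leukocyte gene CD45, the same 4 values were negative. The median of all genes was then -1.10, below all 4 values. In that scaling 80.4% of all genes were called lower and 0.4% higher, and of the 4 only *Fcgr3* was called lower. Without that scaling, both the inhibitory receptor and activating chains were among the genes that rose. *Fcgr1* had a log2 fold change of 0.49 that did not pass the test, and *Fcgrt* one of 0.14. None was lower in edgeR, in DESeq2 or in limma-voom, or at an unadjusted p below 0.05. Over all genes tested, 3.36% were called higher and 2.54% lower. In 4 of the 6, every icOVA tumor was above every sgScramble tumor, a pattern that 11.3% of all genes had, and 13.3% of genes had the opposite one. Calls are those of edgeR's quasi-likelihood test at a Benjamini-Hochberg adjusted p below 0.05 over all genes tested. Their p values set the difference between the groups against the spread between these tumors. The number of clones was not given, so spread between clones may not be covered. In tumor RNA, fewer cells of a type and less RNA per cell cannot be told apart.

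*Fcgr1* encodes the high-affinity IgG receptor and lies apart from the others on chromosome 3 (96282909 to 96293969, minus strand, 6 merged exons; GRCm38, GENCODE M21 annotation). *Fcgr2b* (170958617 to 170976547, minus strand), *Fcgr4* (171018920 to 171029761, plus strand), *Fcgr3* (171051174 to 171064935, minus strand) and *Fcer1g* (171229572 to 171234365, minus strand) are neighbors on chromosome 1. *Fcgrt* is on chromosome 7 (45092990 to 45103851, minus strand). Whether the counts were taken over exons alone was not given in the sources used here. All 6 have an entry in a RefSeq table of promoters (GRCm38.p6), and the bases before the start site were searched on both strands for letters known from interferon and myeloid gene promoters. The 2 windows shown are those that hold 2 matches and lie before the annotated exons, and their capitals mark the matches. Positions are counted from the RefSeq start. In *Fcgr4* the last 6 bases before that start lie in an annotated exon and are not shown, but the positions count them. In *Fcgr1* (chr3:96293970-96294219, minus strand), the first run of capitals is a GAS motif, TTCNNNGAA, known from genes induced by interferon gamma, 109 to 101 bases before the start, and the second is the reverse complement of GAGGAA, a core that the myeloid factor PU.1 binds, 55 to 50 bases before it. In *Fcgr4* (chr1:171018676-171018919, plus strand), the first run is an ISRE core, GAAA followed after any 2 bases by GAAA, from the interferon-stimulated response element to which IRF factors bind, 73 to 64 bases before the start, and the second is again the reverse complement of GAGGAA, 22 to 17 bases before it. Both are written 5′ to 3′ toward the gene:
Fcgr1 promoter: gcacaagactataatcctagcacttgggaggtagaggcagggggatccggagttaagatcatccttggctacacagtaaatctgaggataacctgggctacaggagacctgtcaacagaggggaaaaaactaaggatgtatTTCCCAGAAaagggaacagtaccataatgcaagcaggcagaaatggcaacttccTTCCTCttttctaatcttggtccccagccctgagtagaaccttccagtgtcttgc
Fcgr4 promoter: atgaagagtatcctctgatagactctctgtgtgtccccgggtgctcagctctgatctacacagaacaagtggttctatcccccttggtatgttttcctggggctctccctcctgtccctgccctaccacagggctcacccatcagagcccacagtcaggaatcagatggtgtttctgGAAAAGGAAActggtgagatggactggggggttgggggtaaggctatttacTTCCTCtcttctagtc

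Of 32851 promoter windows of 250 bases, 7.02% held TTCNNNGAA, 2.98% held the ISRE core and 23.3% held GAGGAA on either strand. EICE, a joint motif of PU.1 and an IRF factor in which GGAA is followed after any 2 bases by GAAA, was in 2.3% of them and in that of *Fcgr2b*, 35 to 26 bases before the start. *Fcgr3* had GAGGAA in both of its windows, but these overlap and the match is the same one. Of the 250 bases, 187 in the *Fcgr2b* window and 27 in each *Fcgr3* window lie in annotated exons of the same gene. Those of *Fcer1g* and *Fcgrt* held none of these 4 sets of letters. The matches are descriptions of sequence and no binding was measured.

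*Fcgr1* had 31.5, 51.3 and 38.3 CPM (counts scaled to the size of the library) in sgScramble tumors 1, 4 and 5 and 59.7, 56.8, 60.5 and 50.2 CPM in icOVA tumors 15, 16, 18 and 2. The means were 40.4 ± 10.1 CPM (SD, n = 3) and 56.8 ± 4.68 CPM (SD, n = 4). The groups overlapped through a single pair, with sgScramble tumor 4 just above icOVA tumor 2. Its log2 fold change was 0.49 (SE 0.16, 95% interval 0.12 to 0.86, adjusted p = 0.103 from edgeR), so the difference did not pass over all genes. Without sgScramble tumor 4 it was 0.71 and passed (adjusted p = 0.0249), and DESeq2 called it with all tumors (0.50, adjusted p = 0.0330).

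*Fcgr3* encodes a low-affinity activating receptor that NK cells and myeloid cells share. It had 119.5, 143.4 and 122.5 CPM in the sgScramble tumors and 185.9, 187.3, 196.2 and 182.0 CPM in the icOVA tumors. The groups were well apart, and the icOVA tumors lay within a narrow range. The log2 fold change was 0.55 (SE 0.08, 95% interval 0.36 to 0.73, adjusted p = 0.0230 from edgeR), 1.46-fold.

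*Fcgr4* encodes an activating receptor of monocytes, macrophages and neutrophils that binds IgG2a, its C57BL/6 counterpart IgG2c, and IgG2b. Its values were 70.3, 85.8 and 66.1 CPM in the sgScramble tumors and 125.1, 121.3, 108.6 and 114.5 CPM in the icOVA tumors. Every icOVA tumor was above the highest sgScramble tumor, and icOVA tumor 18 was the lowest of its group, although it was the highest of its group for each of the other 5 genes. The log2 fold change was 0.66 (SE 0.10, 95% interval 0.43 to 0.90, adjusted p = 0.0249 from edgeR).

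*Fcer1g*, the gamma chain on which the surface expression of the activating receptors depends, had 108.9, 131.2 and 115.0 CPM in the sgScramble tumors and 195.7, 176.0, 209.2 and 192.5 CPM in the icOVA tumors. The groups did not overlap, and the lowest icOVA tumor was far above sgScramble tumor 4. Its log2 fold change of 0.71 (SE 0.09, 95% interval 0.50 to 0.92, adjusted p = 0.0230 from edgeR) was the highest value among the 6 genes, but differences between the genes' fold changes were not tested.

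*Fcgr2b*, the inhibitory receptor, had 158.6, 199.7 and 151.8 CPM in the sgScramble tumors and 236.3, 234.7, 299.0 and 237.1 CPM in the icOVA tumors. Of the icOVA tumors, 3 were nearly equal and icOVA tumor 18 stood above them, and none overlapped the sgScramble tumors. The log2 fold change was 0.57 (SE 0.13, 95% interval 0.26 to 0.87, adjusted p = 0.0477 from edgeR), close to the threshold. It missed the threshold with scaling by total counts (adjusted p = 0.0526) or by the upper quartile (0.0549) and with no filter on low counts (0.0532), with fold changes of 0.55, 0.56 and 0.57. *Fcgr2b* and *Fcgr3* share sequence: 5.31% of the read-length windows of *Fcgr3* occur also in *Fcgr2b*, and 2.67% of those of *Fcgr2b* occur in other genes, so the split of such reads depends on the counting, which was not given. With both genes added into 1, the log2 fold change was 0.56 (adjusted p = 0.0343).

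*Fcgrt*, the FcRn heavy chain, was the exception in its spread. It had 32.1, 36.5 and 35.4 CPM in the sgScramble tumors and 40.1, 21.3, 60.9 and 30.7 CPM in the icOVA tumors. The sgScramble tumors were nearly equal and lay within the range of the icOVA tumors, which ran from below to above them. The log2 fold change was 0.14 (SE 0.31, 95% interval -0.58 to 0.86, adjusted p = 0.80 from edgeR), an interval that includes a rise as large as that of any of the other 5 genes as well as a decrease. Its sign turned to -0.17 without icOVA tumor 18.

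**Figure D1:**
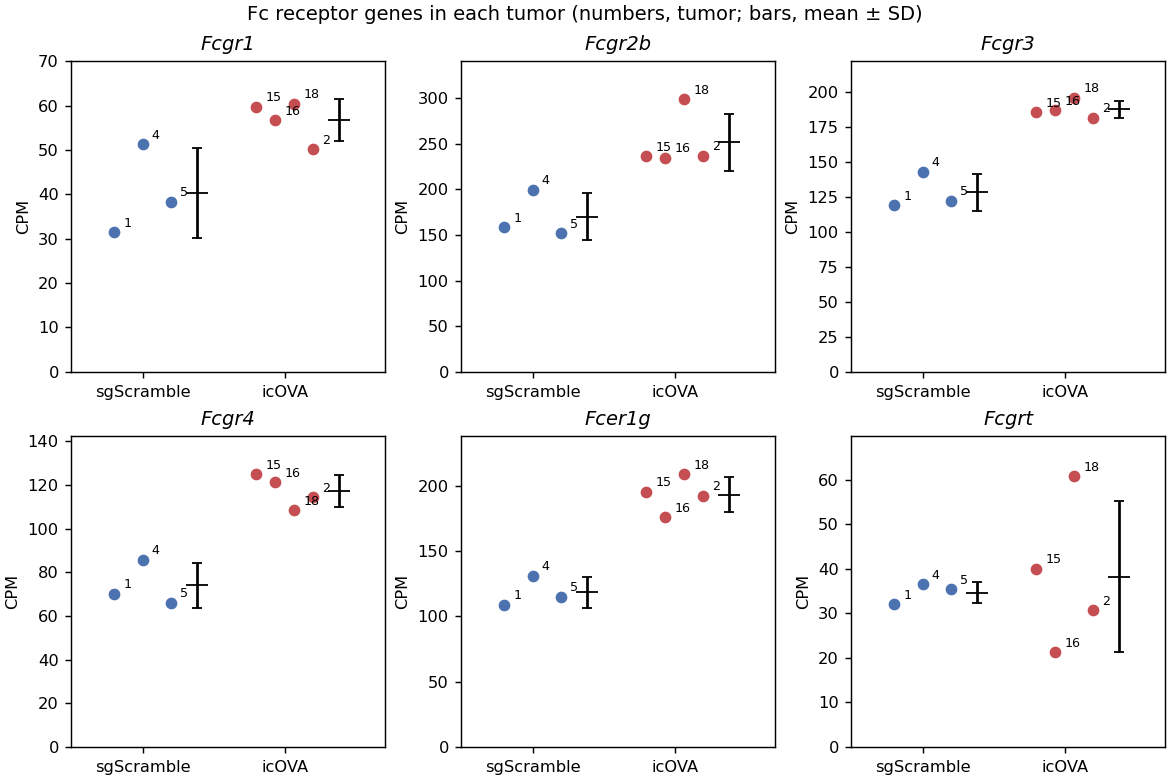
CPM of each of the 6 Fc receptor genes (y axes from 0) in the 3 sgScramble tumors (blue) and the 4 icOVA tumors (red), with the tumor number beside each point and the mean ± SD at the right of each group. The groups are separate for Fcgr2b, Fcgr3, Fcgr4 and Fcer1g, touch for Fcgr1 through sgScramble tumor 4 at 51.3 and icOVA tumor 2 at 50.2 CPM, and overlap for Fcgrt.

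The calls depended on single tumors. Without sgScramble tumor 1, sgScramble tumor 5, icOVA tumor 15 or icOVA tumor 2, edgeR called 0 of the 6 genes (5, 4, 5 and 5 at an unadjusted p below 0.05), and over all genes it then called 0 in the first 3 cases, where 3087, 2936 and 3415 had an unadjusted p below 0.05, and 6 higher and 2 lower without icOVA tumor 2. In those 4 fits the adjusted p of the 4 genes ran from 0.0614 to 0.202, while their log2 fold changes ran from 0.50 to 0.72. Without sgScramble tumor 4, 5 genes were called, and without icOVA tumor 16 or icOVA tumor 18 the count was 4. Over all genes, edgeR called 862 higher and 681 lower of 17880 without sgScramble tumor 4. It called 1014 higher and 716 lower of 17247 without icOVA tumor 16, and 615 and 492 of 17185 without icOVA tumor 18.

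Per length of exon, *Fcer1g* had the highest level, with a mean of 221 ± 15.6 RPKM (SD, n = 4), reads per kilobase of exon scaled to the library, in the icOVA tumors. *Fcgr3* followed with 108 ± 3.47 RPKM, *Fcgr4* with 93.5 ± 5.82 RPKM, *Fcgr2b* with 43.5 ± 5.44 RPKM, *Fcgr1* with 21.9 ± 1.81 RPKM and *Fcgrt* with 18.2 ± 8.04 RPKM (SD, n = 4 each). The order was the same in the sgScramble tumors except that *Fcgrt*, at 16.5 ± 1.09 RPKM, had a higher mean than *Fcgr1*, at 15.6 ± 3.89 RPKM (SD, n = 3 each). Neighbors in this order did not overlap within either group, save *Fcgr1* and *Fcgrt*, which overlapped in both groups. In the sgScramble tumors *Fcgr3* and *Fcgr4* were separated by little, with a lowest *Fcgr3* value of 68.8 and a highest *Fcgr4* value of 68.3 RPKM. The place of *Fcgr2b* depended on the length used, since its annotated exons span 5790 bases and its coding sequence 1020. Per coding length it had 246.8 RPKM in the icOVA tumors, overlapping *Fcgr3* at 234.5, and both were above *Fcgr4* at 157.2 RPKM.

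The balance of activating chains to the inhibitory receptor was read in each tumor as the log2 ratio of counts to *Fcgr2b*. For all 4 chains the groups overlapped, and the icOVA mean minus the sgScramble mean was -0.05 for *Fcgr1*, -0.02 for *Fcgr3*, 0.10 for *Fcgr4* and 0.14 for *Fcer1g*. The ratio of *Fcgr4* to *Fcgr2b* was -1.17, -1.22 and -1.20 in the sgScramble tumors, a span narrower than that of the icOVA tumors, which had -0.92, -0.95, -1.46 and -1.05. Thus 3 icOVA tumors were above all sgScramble tumors in this ratio, and icOVA tumor 18 was below all of them. *Ifng*, which encodes interferon gamma, an inducer of activating Fc receptors, was also lowest in icOVA tumor 18 among the icOVA tumors, at 15.2 CPM beside 28.0, 22.1 and 24.5 CPM in icOVA tumors 15, 16 and 2. The summed level of 6 cancer epithelium markers was lowest there too, at 2910 CPM, against 4546 to 5072 CPM in the other 3 icOVA tumors. So were the sums of the monocyte markers, at 792.0 CPM against 936.1 to 1027, and of the neutrophil markers, at 88.2 CPM against 104.0 to 130.4. Of the monocyte markers, only *Plac8*, looked up after the values were seen, was itself lowest in icOVA tumor 18. It had 341.8 CPM there beside 536.9, 629.1 and 578.4 CPM in icOVA tumors 15, 16 and 2. *Ccr2* was highest in icOVA tumor 18, at 130.3 CPM. The sums of the macrophage, fibroblast and endothelial markers were highest there, at 2476, 23290 and 460.7 CPM. The part of any of these in the ratio was not tested.

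**Figure D2:**
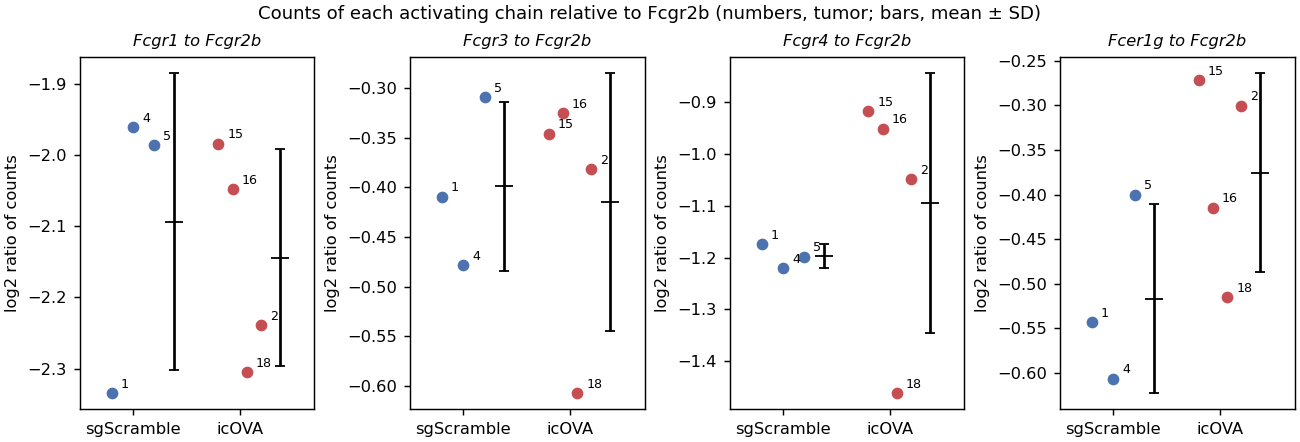
Log2 ratio of the counts of Fcgr1, Fcgr3, Fcgr4 and Fcer1g to those of Fcgr2b (y axes, which differ between panels and do not start at 0) in each sgScramble tumor (blue) and icOVA tumor (red), with tumor numbers and the mean ± SD at the right of each group. The groups overlap in every panel, and for Fcgr4 the icOVA tumor 18, at -1.46, is below the sgScramble tumors and the other 3 icOVA tumors are above them.

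Leukocyte mRNA was more abundant in the icOVA tumors, and the 6 genes were compared with it by scaling the libraries to *Ptprc*. *Ptprc* had 132.0, 175.3 and 115.8 CPM in the sgScramble tumors and 363.4, 258.2, 311.6 and 260.1 CPM in the icOVA tumors, with a log2 fold change of 1.08 (adjusted p = 0.0271 from edgeR). Relative to *Ptprc*, the log2 fold changes were -0.57 for *Fcgr1* (adjusted p = 0.0245), -0.51 for *Fcgr2b* (0.0537), -0.53 for *Fcgr3* (0.0417), -0.41 for *Fcgr4* (0.103), -0.38 for *Fcer1g* (0.135) and -0.99 for *Fcgrt* (0.00248), so that 3 of the 6 were called lower and none higher. Over all genes tested, 80.4% were called lower in this scaling and 0.4% higher. The ratio of each of the 6 to *Ptprc* was lower in every icOVA tumor than in any sgScramble tumor, as was that of 78.2% of all genes tested, and 0.343% had the opposite pattern. This scaling moved the median of all genes to -1.10, and all 6 genes were above that median.

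A second scaling set the genes beside 11 macrophage markers, whose summed level was 1272 to 1693 CPM in the sgScramble tumors and 1766 to 2476 CPM in the icOVA tumors. Relative to them, the log2 fold changes were 0.03 for *Fcgr1*, 0.08 for *Fcgr2b*, 0.07 for *Fcgr3*, 0.20 for *Fcgr4*, 0.23 for *Fcer1g* and -0.40 for *Fcgrt*. edgeR called none of these, and none had an unadjusted p below 0.05. Over all genes, 1.5% were called higher and 25.8% lower in this scaling. The median of all genes was then -0.49. The ratios of all 6 genes to the macrophage sum overlapped between the groups. The part of macrophage or other leukocyte content in the rise of the 4 genes was not tested.

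**Figure D3:**
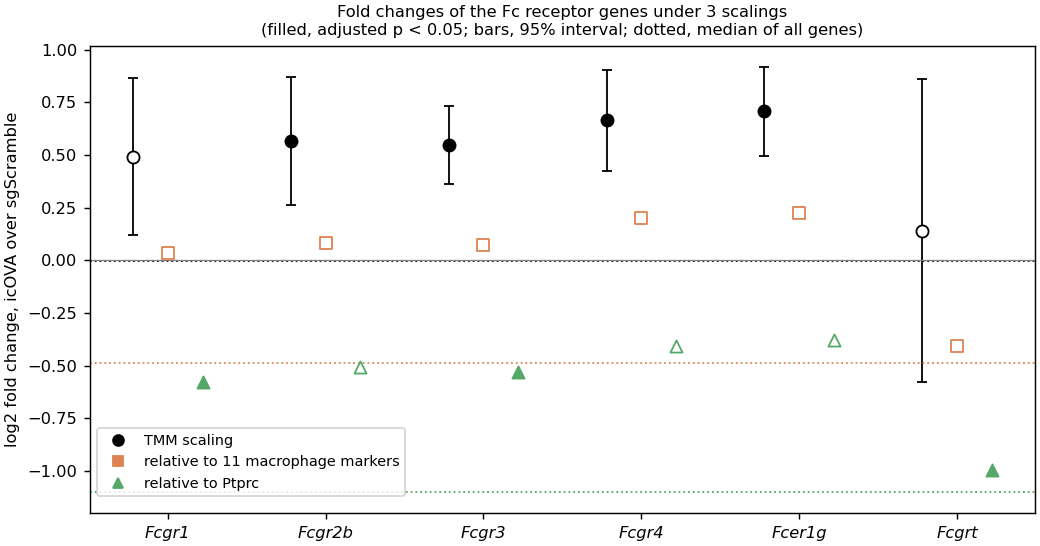
Log2 fold change of icOVA over sgScramble tumors (y axis) for each Fc receptor gene under TMM scaling (black circles, with 95% intervals), relative to 11 macrophage markers (orange squares) and relative to Ptprc (green triangles), where filled symbols have an adjusted p below 0.05 and dotted lines are the median of all genes in each scaling. The values under TMM scaling run from 0.14 to 0.71, those relative to the macrophage markers from -0.40 to 0.23, and those relative to Ptprc from -0.99 to -0.38.

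The heavy chains of IgG, the ligand of these receptors, had log2 fold changes of 4.95 to 7.11, beside at most 0.71 for the receptors. *Ighg2c*, a heavy chain of IgG that Fcgr4 binds, was read 4, 3 and 8 times in the sgScramble tumors against 42, 103, 142 and 357 times in the icOVA tumors (log2 fold change 4.95, adjusted p = 0.0314 from edgeR). *Ighg3* had 1, 1 and 0 counts against 40, 31, 6 and 85 (5.65, adjusted p = 0.0393). *Ighg2b* had 8, 24 and 9 counts against 50, 47, 67 and 2772, and its fold change of 5.76 did not pass (adjusted p = 0.121). Nearly all of the *Ighg2b* counts of the icOVA group were in icOVA tumor 2, which was not the highest icOVA tumor for any of the 6 receptor genes. With *Ighg1* (7.11, adjusted p = 0.0143), 3 of the 4 IgG heavy chains tested were called higher by edgeR and DESeq2, and 1 by limma-voom, and in all 4 the groups did not overlap.

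Of 5 other receptors tested that pair with the gamma chain, 3 rose and their groups did not overlap. They were the C-type lectins *Clec4e* (Mincle, a sensor of dead cells and mycobacteria), with a log2 fold change of 1.79 (adjusted p = 0.0258), *Clec4d* (1.16, adjusted p = 0.0230) and *Clec4n* (Dectin-2, 0.70, adjusted p = 0.0243). *Fcer1a*, the IgE-binding chain of mast cells, had 1.81 but did not pass (adjusted p = 0.176), and its CPM of 0.317, 2.58 and 0.512 in the sgScramble tumors overlapped with 4.19, 1.95, 7.13 and 2.67 CPM in the icOVA tumors. Among 9 Fc and Fc receptor-like genes outside the 6 that were tested, of 13 listed and *Fcer1a* among them, edgeR called 0 (4 at an unadjusted p below 0.05, 1 in DESeq2 and 0 in limma-voom), with a median log2 fold change of 0.46 beside -0.0048 over all genes. The other ITAM and transmembrane adaptors were *Cd247*, the zeta chain that T cells and NK cells use, which rose by 1.62 (adjusted p = 0.0230), *Tyrobp*, the DAP12 adaptor of myeloid and NK cells, which rose by 0.69 (0.0418), and *Hcst*, the DAP10 adaptor (1.10, adjusted p = 0.0532).

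Genes of the signaling steps below the activating receptors were higher too. Of 14 tested, 9 were called higher and 0 lower (14 and 0 at an unadjusted p below 0.05, and 12 and 0 in DESeq2), 13 had no overlap between the groups, and the median log2 fold change was 0.81. *Syk*, the kinase that binds the phosphorylated ITAM, had 49.0, 56.5 and 42.9 CPM in the sgScramble tumors and 106.9, 85.9, 113.3 and 99.2 CPM in the icOVA tumors (log2 fold change 1.03, adjusted p = 0.0230). The adaptor *Lcp2* rose by 1.18 (0.0271), and the Src family kinase *Fgr* rose by 0.92 (0.0257).

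Of the 5 genes of inhibitory signaling, 2 rose: *Ptpn6*, the phosphatase SHP-1, by 0.61 (adjusted p = 0.0430), and the adaptor *Dok2* by 0.71 (0.0436). *Inpp5d*, which encodes SHIP-1, the phosphatase that Fcgr2b recruits, had 0.64 but did not pass (adjusted p = 0.0942), and its groups overlapped. *Dok1* had 0.07 (adjusted p = 0.761). Of 6 other inhibitory receptors of myeloid cells, 5 rose, among them *Pirb* (1.21, adjusted p = 0.0230), *Cd300a* (1.07, 0.0243), *Lilrb4a* (1.04, 0.0235) and *Sirpa*, the receptor for CD47 (1.01, 0.0271). The median of these 6 log2 fold changes was 1.03, beside 0.57 for *Fcgr2b*.

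Beside *Fcgrt*, its partner chain beta-2-microglobulin, *B2m*, had a log2 fold change of 0.07 (adjusted p = 0.779), with overlapping groups. *Alb*, which encodes the other ligand of FcRn, albumin, fell by 4.16 on the log2 scale (adjusted p = 0.0280 from edgeR), from 3.89, 1.06 and 3.42 CPM to at most 0.373 CPM in the icOVA tumors, a low level in every tumor.

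Among 12 tested genes known to regulate Fc receptor expression, 4 rose, with a median of 0.30 for the list. *Ifng* rose by 1.08 (adjusted p = 0.0352) and *Il10*, which raises *Fcgr1* in myeloid cells, by 1.62 (0.0380). *Irf8*, a transcription factor of myeloid cells, rose by 0.79 (0.0271) and *C5ar1*, the receptor for the complement fragment C5a, which shifts macrophages toward activating Fc receptors, by 0.81 (0.0284). *Spi1*, the gene of PU.1, was looked up after the values were seen and had 0.67 (adjusted p = 0.0690).

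The cells that could carry the receptors were read from marker lists. Of 11 macrophage markers 3 were called higher, *Cd68*, *Mertk* and *Itgam*, with log2 fold changes of 0.82, 0.90 and 0.83 and a list median of 0.62. Of 5 monocyte markers 2 were called, *Ly6c2* (1.66) and *Ccr2* (1.12), of 7 dendritic cell markers 1, *Siglech* (1.81), and of 5 NK cell markers 1, *Eomes* (1.05). Of 6 T cell markers 5 were called, with a median of 1.26. Of 6 neutrophil markers tested edgeR called 0 (2 at an unadjusted p below 0.05, 1 in DESeq2 and 0 in limma-voom), with a median of 0.55, and of 7 mast cell markers 0 (2, 1 and 0), with a median of 1.36. *Ly6g*, a defining marker of neutrophils, had 0 to 7 counts per tumor and did not pass the filter. Of 5 endothelial markers 0 were called by edgeR (5 at an unadjusted p below 0.05, 4 in DESeq2 and 0 in limma-voom), with a median of 0.85. B cell markers were low, with a summed level of 2.99 to 4.89 CPM in the sgScramble tumors and 5.93 to 7.02 CPM in the icOVA tumors, and 0 of 5 were called (0 also at an unadjusted p below 0.05, in DESeq2 and in limma-voom). The markers of cancer epithelium had a median log2 fold change of 0.08 and 0 of 6 called (0 by the same 3 counts), and their summed level was at least 2910 CPM in every tumor, as the PDA label implies. The part of each cell type in the differences of the Fc receptor genes was not tested.

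**Figure D4:**
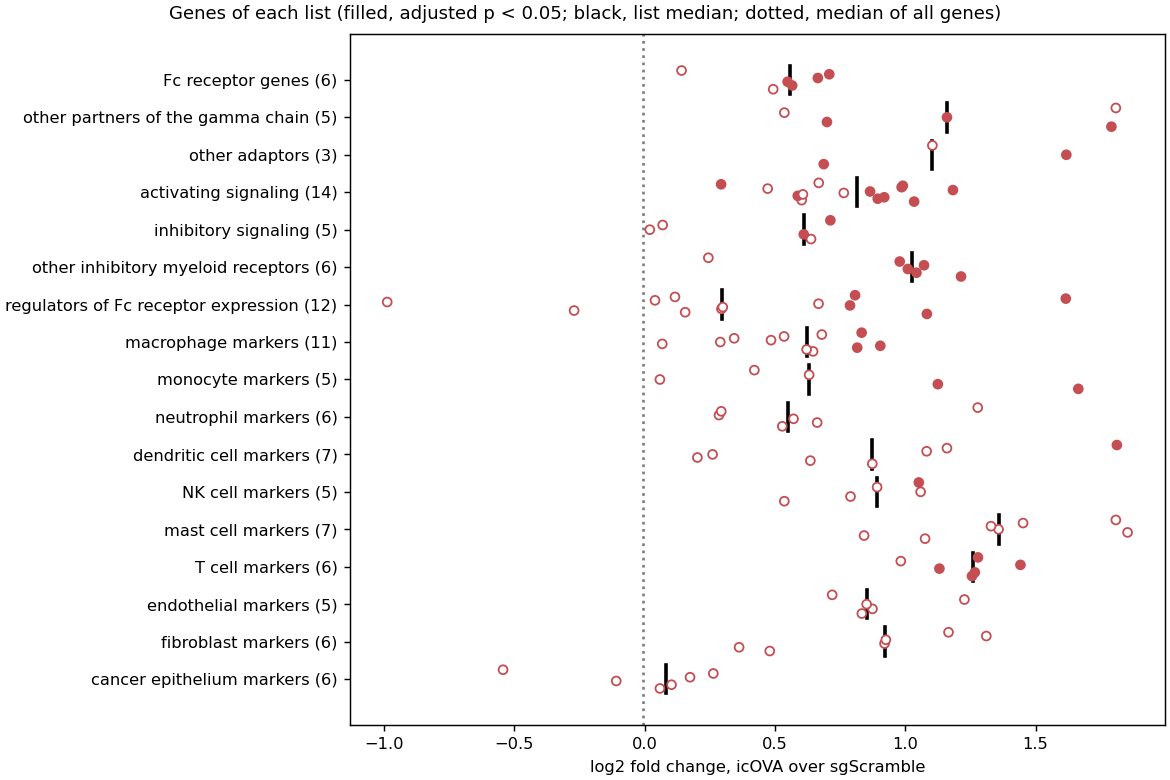
Log2 fold change of icOVA over sgScramble tumors (x axis) for every tested gene of the Fc receptor genes and of 16 other lists (rows, with the number of genes tested), where filled points have an adjusted p below 0.05, black bars are list medians and the dotted line is the median of all genes. The Fc receptor genes have a median of 0.56, beside 0.81 for activating signaling, 1.03 for the other inhibitory myeloid receptors, 0.62 for macrophage markers and 0.08 for cancer epithelium.

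The spread of *Fcgrt* in the icOVA group was set beside the marker lists. In that group its order, from icOVA tumor 16 at 21.3 CPM through tumors 2 and 15 to tumor 18 at 60.9 CPM, was that of the summed level of 6 fibroblast markers, which was 3860, 5879, 16470 and 23290 CPM in the same order. The sums of the macrophage, endothelial, mast cell and NK cell markers had this order too, from 1766 to 2476, 190.2 to 460.7, 77.3 to 323.8 and 44.5 to 93.1 CPM. In the sgScramble tumors the fibroblast sum was 4556, 10700 and 4297 CPM, and sgScramble tumor 4 again had the highest *Fcgrt*, while the order of tumors 1 and 5 was the opposite one. The fibroblast markers had a median log2 fold change of 0.92 with 0 of 6 called (0 at an unadjusted p below 0.05, in DESeq2 and in limma-voom), and the icOVA tumors lay on both sides of the sgScramble tumors. *Rcn3*, a gene 769 bases from *Fcgrt* on the same strand that was looked up after the values were seen, had 109.6, 33.3, 167.0 and 56.9 CPM in icOVA tumors 15, 16, 18 and 2, the same order. *Fcgr3*, in contrast, had 182.0 to 196.2 CPM in the icOVA tumors across the whole range of the fibroblast sum. The part of any of these cell types in the spread of *Fcgrt* was not tested.

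**Figure D5:**
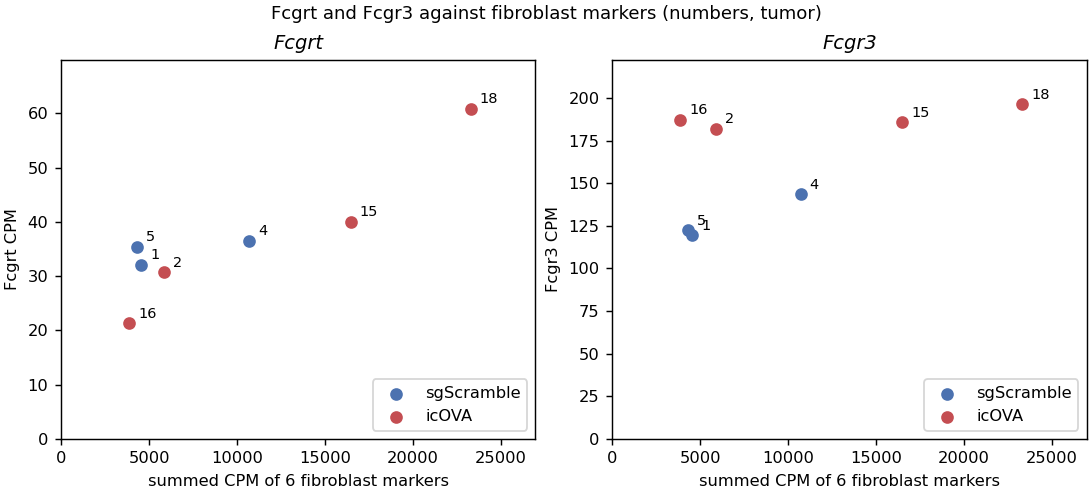
CPM of Fcgrt (left) and Fcgr3 (right) on the y axes against the summed CPM of 6 fibroblast markers (x axes) in each sgScramble tumor (blue) and icOVA tumor (red), with tumor numbers. Fcgrt runs from 21.3 CPM in icOVA tumor 16, with the lowest fibroblast sum, to 60.9 CPM in icOVA tumor 18, with the highest, while Fcgr3 stays between 182.0 and 196.2 CPM in the icOVA tumors.

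Across the 7 tumors the log2 CPM of *Fcgr3* and *Fcer1g* had the highest Pearson r of the 15 pairs among the 6 genes, at 0.985, and *Fcgr4* and *Fcgrt* the lowest, at -0.03. Such values carry the difference between the groups as well as the spread within them. With each group's mean removed, *Fcgr1* and *Fcgr3* had the highest r, at 0.931, *Fcgr2b* and *Fcgr4* had 0.336, and *Fcgr4* and *Fcgrt* had -0.23. The genes whose pattern over the 7 tumors was most like each receptor, of all genes tested, are given with their r as a description. They were *Gm9816*, *Lpcat2* and *Fkbp5* for *Fcgr1* (0.987, 0.986 and 0.983), *Ccne2*, *Tnfrsf1b* and *Ifitm3* for *Fcgr3* (0.997, 0.996 and 0.994), and *Mndal*, *Socs4* and *Pstpip2* for *Fcgr4* (0.999, 0.996 and 0.995). For *Fcer1g* they were *Cdv3*, *Lag3* and *Cd52* (0.995, 0.994 and 0.993), for *Fcgr2b* *Pfas*, *Mipep* and *Tnfrsf26* (0.993, 0.992 and 0.992), and for *Fcgrt* *6330403L08Rik*, *Osr2* and *Zfp354c* (0.992, 0.992 and 0.989). None of these genes was shared between 2 of the receptors.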

How the data were processed

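RNA of 7 tumors was sequenced. The authors deposited raw counts of reads per gene, not normalized, for 22628 Ensembl genes and the ovalbumin transgene. The methods name a TruSeq stranded total RNA kit, while the labels give polyA RNA and the mm10 build. The aligner, counter, annotation release and use of strand were not given in the sources used here, and *Fcgr2b* shares exon bases with an antisense gene. Total counts ran from 30904855 to 37510591 per tumor, and ovalbumin counts from 85 to 151 in sgScramble and from 3413 to 10750 in icOVA tumors. Symbols and coordinates came from GENCODE M21 on GRCm38, in which 22414 identifiers matched a name.

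Counts were filtered with filterByExpr (minimum count 10, total 15), scaled by TMM and tested with edgeR 4.0.16 in R 4.3.3 over all 17489 genes. DESeq2 1.42.0, limma 3.58.1 (voom), other scalings and filters, and leaving out each tumor were alternatives. RPKM used merged exon lengths. Log2 CPM had a prior count of 2. Each tumor is a separate sample in the labels.

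The 6 genes and the 22 gene lists were chosen with earlier results of these data known. Genes named were the 6, every IgG chain, FcRn partner and *Ptprc*, at most 4 genes of each other list by lowest p, and 3 genes by likeness per receptor. Others are said to be looked up after the values were seen. Some genes that this rule names are not reported here.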

Additional observations from a re-analysis of the deposited data

Results flagged for a closer look

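Within the icOVA group, 87 genes of the lists were examined for a tumor far from the other 3 by Dixon's ratio of gap to range at its 95% critical value for 4 tumors (0.829), and 4 had one, where chance alone gives about 1 in 20, or 4.35. *Fcgr2b* was far from the others in icOVA tumor 18, at 8.22 log2 CPM against 7.88, 7.88 and 7.89 in icOVA tumors 15, 16 and 2 (ratio 0.959). *Ighg2b* was far from the others in icOVA tumor 2, at 6.43 log2 CPM, *Vcan* was lower in icOVA tumor 2, at 7.64 log2 CPM, and *Cd79b* was lower in icOVA tumor 16, at -0.26 log2 CPM.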

How the results depend on the processing

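Relative to *Ptprc*, the log2 fold changes of *Fcgr1*, *Fcgr2b*, *Fcgr3*, *Fcgr4*, *Fcer1g* and *Fcgrt* turned to -0.57, -0.51, -0.53, -0.41, -0.38 and -0.99, with 0 of the 6 called higher and 7 of 126 list genes. Of the 6, 3 were called lower, and over all genes 0.4% were called higher and 80.4% lower. Relative to the macrophage markers the 6 log2 fold changes were 0.03, 0.083, 0.074, 0.20, 0.23 and -0.40, with 0 and 25 called higher. Over all genes, 1.5% were then called higher and 25.8% lower. Both scalings divide by mRNA that was itself higher. DESeq2 called *Fcgr1* (0.50) and 62 list genes instead of 41, and 1558 genes higher and 1278 lower over all genes instead of 588 and 444. *Fcgr2b* was not called with total counts (0.55), the upper quartile (0.56) or no filter (0.57), and the cause was not tested. With coding length, mean RPKM in the icOVA tumors was 46.9 for *Fcgr1*, 246.8 for *Fcgr2b*, 234.5 for *Fcgr3*, 157.2 for *Fcgr4*, 582.4 for *Fcer1g* and 34.6 for *Fcgrt*, since the divisor is shorter. Leaving out each tumor in turn, from 0 to 5 of the 6 genes and from 0 to 54 list genes were called higher, and over all genes from 0 to 1014 higher and from 0 to 716 lower. The log2 fold changes ran from 0.35 to 0.71 for *Fcgr1*, 0.47 to 0.71 for *Fcgr2b*, 0.50 to 0.64 for *Fcgr3*, 0.59 to 0.79 for *Fcgr4*, 0.65 to 0.80 for *Fcer1g* and -0.17 to 0.34 for *Fcgrt*. The differences in log2 ratio to *Fcgr2b* ran from -0.17 to 0.02 for *Fcgr1*, -0.06 to 0.05 for *Fcgr3*, 0.04 to 0.22 for *Fcgr4*, 0.10 to 0.20 for *Fcer1g* and -0.70 to -0.32 for *Fcgrt*. No paired analysis was possible because the labels do not identify pairs of tumors, although the paper's legend of its heat map speaks of paired cells. With 3 and 4 tumors, the intervals of *Fcgr1* and *Fcgrt* include rises as large as those of the other genes.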
